A study of Drosophila melanogaster with 2 samples.

Results

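Promoter summits of non-coding genes only are the binding sites of the sug-eGFP fusion protein that lie at the start of an RNA gene without lying at the start of a protein-coding gene. They were chosen from the 9342 summits that passed the authors' irreproducible discovery rate (IDR) threshold, by position alone: the summit lay no farther than 1 kb from a transcription start site (TSS) of a gene that is not protein-coding, and no protein-coding TSS lay within 1 kb. The rule found 321 summits, 3.44% of the IDR set, at 264 nearest non-coding genes. Of the other IDR summits, 5209 (55.8%) lay within 1 kb of protein-coding TSSs alone, 524 (5.61%) lay within 1 kb of both kinds and 3288 (35.2%) lay within 1 kb of no TSS. By class of the nearest non-coding gene, 205 of the 321 were at long non-coding RNA (lncRNA) genes, 36 at antisense RNA genes, 26 at microRNA genes, 22 at tRNA genes, 13 at small nucleolar RNA (snoRNA) genes, 9 at small nuclear RNA (snRNA) genes, 6 at pseudogenes and 4 at other RNA genes. The small classes depend on the library: the highest rows of replicate 2 alone held 5 summits at snRNA genes and 2 at other RNA genes.

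The summits came from ChIP-seq with an antibody against GFP on whole Drosophila melanogaster embryos of both sexes aged 8 to 24 hours. The embryos were of a transgenic line that stably expresses sugarbabe (sug) with GFP at its C terminus, there was 1 group with 2 biological replicates, and the labels name no promoter for the transgene. All cell types of the embryo were pooled, and neither a control library nor embryos without the fusion protein were analysed here. No depth was given in the sources used here, so it is unknown, and signal values are the authors' scores, comparable only within a list. With 1 group there is no comparison of conditions and no test, so shares are given with 95% Wilson intervals that cover counting error only.

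Sugarbabe is a zinc finger transcription factor of the GLI-similar kind, known for its induction by dietary sugar and for its part in the control of fat-making genes in larvae. Non-coding genes are made by different machineries: RNA polymerase II makes lncRNAs, antisense RNAs, microRNA precursors and most spliceosomal snRNAs, while RNA polymerase III makes tRNAs, U6, 7SK and the RNase MRP RNA, and many Drosophila snoRNAs are cut from the introns of other transcripts. For microRNAs and many snoRNAs the annotated start is therefore an end of the processed RNA or its hairpin, and the start of the primary transcript can lie elsewhere.

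The sequences around the leading summits are shown so that the words counted further on can be seen in place. The site with the highest signal is given for each class, except for microRNAs, where the second highest is given, and lncRNA:CR43411 was added after its values were seen, as a leading site that holds both a run of 6 C and a GATA word. Each window is 201 bp centred on the summit, read from RefSeq's copy of dm6 and written 5′ to 3′ on the strand of the named gene, with capitals marking words of a list of 11, on either strand. The windows are chrX:12751249-12751449 on the plus strand for lncRNA:CR44619, chr3R:15231827-15232027 on the minus strand for asRNA:CR43471, chr3R:10099531-10099731 on the plus strand for mir-277, chr3R:8642350-8642550 on the minus strand for tRNA:Tyr-GTA-1-4 and chr3L:262793-262993 on the minus strand for snoRNA:Psi18S-996. The others are chr3L:16652714-16652914 on the plus strand for snRNA:U12, chr3R:23730129-23730329 on the minus strand for RNaseMRP:RNA, chr3R:4187358-4187558 on the plus strand for the pseudogene CR33294 and chr2L:14613387-14613587 on the plus strand for lncRNA:CR43411.
lncRNA:CR44619: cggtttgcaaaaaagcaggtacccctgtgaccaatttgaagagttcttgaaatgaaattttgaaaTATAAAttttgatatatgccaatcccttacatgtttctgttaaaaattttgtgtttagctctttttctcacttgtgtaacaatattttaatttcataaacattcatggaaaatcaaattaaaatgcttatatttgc
asRNA:CR43471: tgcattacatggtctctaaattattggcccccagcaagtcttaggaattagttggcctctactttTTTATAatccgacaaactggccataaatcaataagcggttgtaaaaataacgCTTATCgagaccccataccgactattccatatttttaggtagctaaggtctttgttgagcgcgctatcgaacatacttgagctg
mir-277: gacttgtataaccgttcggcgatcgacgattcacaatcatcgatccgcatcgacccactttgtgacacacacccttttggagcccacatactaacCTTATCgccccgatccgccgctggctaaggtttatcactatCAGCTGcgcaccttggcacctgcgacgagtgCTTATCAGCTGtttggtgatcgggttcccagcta
tRNA:Tyr-GTA-1-4: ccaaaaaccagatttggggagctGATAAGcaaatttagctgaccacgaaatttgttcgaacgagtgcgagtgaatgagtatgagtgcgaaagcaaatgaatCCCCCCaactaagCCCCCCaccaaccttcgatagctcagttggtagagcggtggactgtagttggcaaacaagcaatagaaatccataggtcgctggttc
snoRNA:Psi18S-996: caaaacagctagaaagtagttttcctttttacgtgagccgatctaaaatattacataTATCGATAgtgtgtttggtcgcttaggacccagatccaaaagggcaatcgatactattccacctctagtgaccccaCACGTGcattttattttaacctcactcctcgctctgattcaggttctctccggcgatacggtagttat
snRNA:U12: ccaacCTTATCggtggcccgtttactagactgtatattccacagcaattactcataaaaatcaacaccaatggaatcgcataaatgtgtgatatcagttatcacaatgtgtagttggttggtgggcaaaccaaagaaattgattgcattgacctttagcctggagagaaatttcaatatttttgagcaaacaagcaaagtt
RNaseMRP:RNA: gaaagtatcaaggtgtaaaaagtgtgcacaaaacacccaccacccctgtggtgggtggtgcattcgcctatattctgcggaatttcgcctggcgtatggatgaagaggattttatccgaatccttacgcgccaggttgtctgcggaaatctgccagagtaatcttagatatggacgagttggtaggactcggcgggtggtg
CR33294: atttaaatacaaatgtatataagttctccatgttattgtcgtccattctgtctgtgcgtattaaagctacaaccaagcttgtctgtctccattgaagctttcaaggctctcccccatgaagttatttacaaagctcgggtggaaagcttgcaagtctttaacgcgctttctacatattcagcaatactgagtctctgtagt
lncRNA:CR43411: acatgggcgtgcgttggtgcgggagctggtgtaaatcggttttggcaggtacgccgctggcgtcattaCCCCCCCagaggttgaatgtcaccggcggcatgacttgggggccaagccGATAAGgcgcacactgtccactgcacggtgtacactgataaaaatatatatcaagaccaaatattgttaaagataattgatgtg

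In these windows lncRNA:CR44619 held a TATA word (TATAAA), asRNA:CR43471 held a TATA and a GATA word (GATAAG) and mir-277 held GATA words and E boxes (CAGCTG). The tRNA:Tyr-GTA-1-4 window held 2 runs of 6 C beside the tRNA, which begins 25 bp from the summit, and a GATA word. The snoRNA:Psi18S-996 window held a DNA replication-related element (DRE, TATCGATA), bound in flies by the factor DREF, and an E box of the Myc type (CACGTG). RNaseMRP:RNA and CR33294 held no word of the list.

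The hairpins of 5 microRNAs that lie in lncRNA genes illustrate the small RNAs at these sites. The mature products are shown in DNA letters (T for U), from the annotated ends on dm6, with the seed (bases 2 to 8) in capitals, and they were picked after the values were seen. The hairpins lie at chr3R:10100022-10100121 (mir-277), chr3R:10100936-10101034 (mir-34), chr3L:642208-642288 (mir-ban, the growth regulator bantam), chr3R:29215585-29215684 (mir-279) and chr2L:7425795-7425892 (mir-275), all on the plus strand. The 10 products have 10 different seeds.
mir-277 5′ arm: cGTGTCAGgagtgcatttgca
mir-277 3′ arm: tAAATGCActatctggtacgaca
mir-34 5′ arm: tGGCAGTGtggttagctggttgtg
mir-34 3′ arm: cAGCCACTatcttcactgccgcc
mir-ban 5′ arm: cCGGTTTTcgatttggtttgact
mir-ban 3′ arm: tGAGATCAttttgaaagctgatt
mir-279 5′ arm: aGTGGGTGggggtccagtgtttcaca
mir-279 3′ arm: tGACTAGAtccacactcattaa
mir-275 5′ arm: cGCGCTAAtcagtgaccggggct
mir-275 3′ arm: tCAGGTACctgaagtagcgcgcg

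The signal of these summits ran from 224.6 to 6506, against 223.8 to 24384 over all IDR summits, and had a median of 398.3 and quartiles of 288 and 696, against a median of 437.6 at the 5733 summits with a protein-coding TSS within 1 kb (called protein-coding promoters here) and 403.2 at the 3288 away from any TSS. Ranked among all IDR summits, the non-coding promoter summits had a median percentile of 45.9, protein-coding promoters 51.9 and summits away from TSSs 46.8. In 5 equal steps of signal from the highest down, the IDR set held 65, 52, 67, 63 and 74 of these summits, or 2.78 to 3.96% of each step, so they were found at every level of signal. The 95% interval of the share was 2.74 to 4.41% in the highest step and 3.17 to 4.94% in the lowest.

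**Figure D1:**
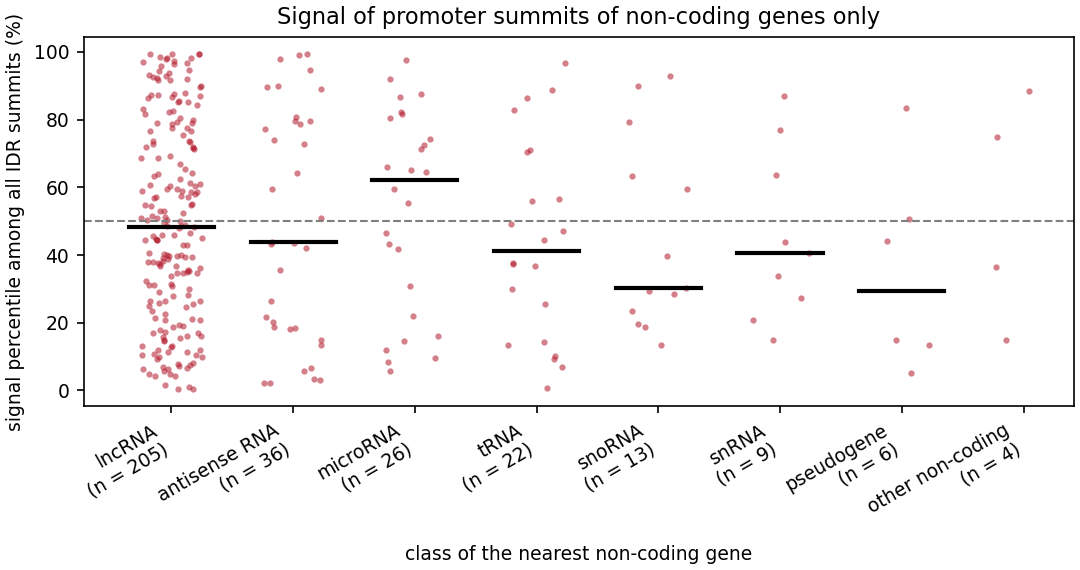
Signal percentile among all IDR summits (vertical axis, %) of each of the 321 promoter summits of non-coding genes, by class of the nearest non-coding gene. Each point is a summit, thick bars are class medians (not drawn for the 4 in the last class), and the dashed line marks the IDR median. Medians lie between 29.5 for pseudogenes and 62.1 for microRNAs, and points of the larger classes spread over the whole axis.

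Most of these sites were found in each embryo collection on its own. A summit lay within 100 bp in both replicate lists, which hold 30000 rows each, for 292 of 321 (91.0%, 87.3 to 93.6%), against 90.1% of all IDR summits and 89.4% of protein-coding promoters. The IDR set was made from these lists, so the share describes the set and is no independent check. Replicate 1 lacked a partner for 14 and replicate 2 for 16, 1 of them lacking both, and 231 (72.0%) were among the 9342 highest of both lists. The ranks of the 292 in the replicate lists had a Spearman correlation of 0.703, and that of the 8419 IDR summits found in both lists was 0.689. These points share the pooled peak call, so the correlations are descriptions only.

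**Figure D2:**
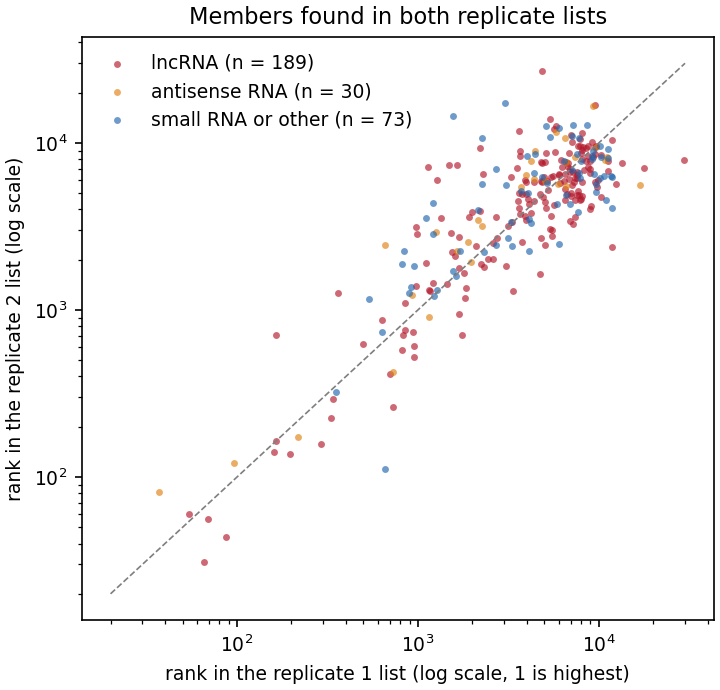
Rank of each promoter summit of a non-coding gene in the replicate 1 list (horizontal axis) and in the replicate 2 list (vertical axis), both on log scales with 1 the highest. The 292 summits found in both lists are shown, coloured by class of the nearest non-coding gene, with a dashed line at equal ranks. Most of the 12 highest sites lie near that line, with mir-278 (ranks 662 and 111) the farthest from it among them.

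The summits lay less tightly on the annotated starts than those of protein-coding genes. Within 200 bp of the start were 99 of 321 (30.8%, 26.0 to 36.1%), against 3683 of 5733 protein-coding promoters (64.2%, 63.0 to 65.5%), and within 100 bp were 44 (13.7%). The median distance to the nearest non-coding start was 370 bp (quartiles 170 and 644), against 126 bp from the nearest start at protein-coding promoters. Upstream of the start lay 181 (56.4%, 50.9 to 61.7%), against 3477 of 5209 summits at protein-coding starts alone (66.7%, 65.5 to 68.0%). The 200 bp just upstream held 62 summits (19.3%), against 2349 (45.1%) at protein-coding starts alone, and each of the other 200 bp steps held 20 to 44 of the non-coding promoter summits. How well the starts of these RNAs are annotated was not tested.

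**Figure D3:**
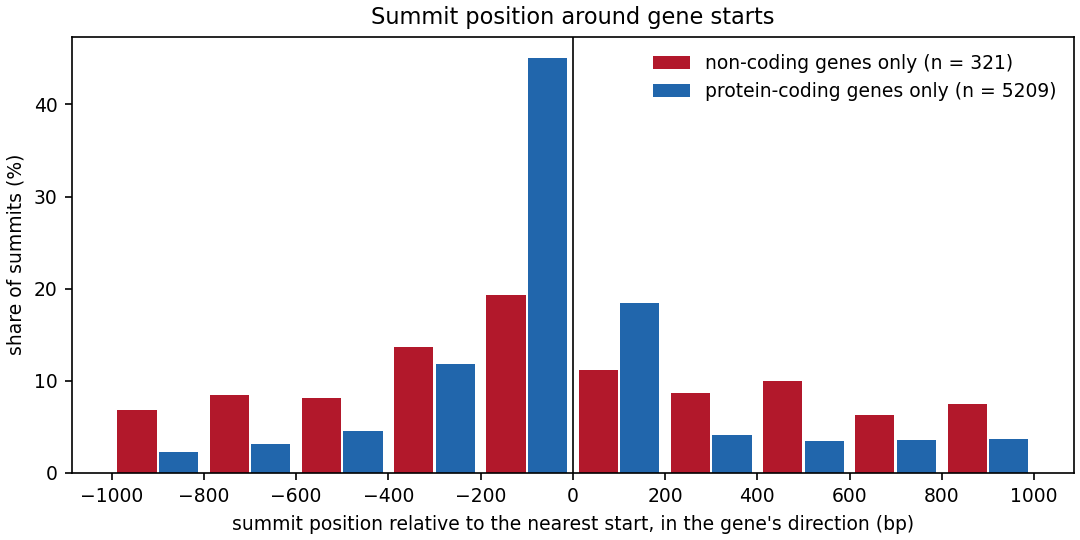
Share of summits (vertical axis, %) in steps of 200 bp by position relative to the nearest start, in the direction of the gene (horizontal axis, bp; negative is upstream). Red bars are the 321 promoter summits of non-coding genes and blue bars the 5209 summits with protein-coding starts alone. The step just upstream holds 19.3% of the red set and 45.1% of the blue set, and the red set is spread over all steps.

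The sites lay inside protein-coding genes, although not at their starts, less often than IDR summits at large. The span of a protein-coding gene held 131 of 321 (40.8%, 35.6 to 46.3%), against 65.2% of all IDR summits. It held 3308 of 5733 protein-coding promoters (57.7%) and 2649 of 3288 summits away from TSSs (80.6%). In 84 of the 131 the non-coding gene ran opposite to the host and in 47 along it. By place, 114 (35.5%) lay between genes, 104 (32.4%) in an exon of a non-coding gene, 82 (25.5%) in an intron of a protein-coding gene, 14 (4.36%) in a protein-coding exon and 7 (2.18%) in an intron of a non-coding gene. The nearest protein-coding TSS was 1 to 2 kb away for 101, 2 to 5 kb for 118, 5 to 10 kb for 52 and farther for 50, with a median of 2913 bp. That nearest protein-coding gene had a promoter summit of its own in the IDR set in 228 cases (71.0%, 65.8 to 75.7%), against 2407 of the 3288 summits away from TSSs (73.2%).

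Joined where they lay within 1 kb of each other, the 321 summits formed 271 loci, of which 43 held more than 1 and none more than 3. An interval was shared with another IDR summit by 59 of the 321 (18.4%, 14.5 to 23.0%), against 15.9% of protein-coding promoters, 17.5% of summits away from TSSs and 16.6% of all IDR summits. Of the 50 gaps of up to 1 kb between neighbouring summits of the set, 23 (46.0%) measured 200 to 210 bp and the smallest was 199 bp. Over the whole IDR set the smallest gap was also 199 bp, and 692 of 1984 gaps (34.9%) measured 200 to 210 bp. Neighbours at that spacing are counted separately here, and whether they are separate contacts was not tested.

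Long non-coding RNA genes made up the largest class, with 163 nearest genes. Their 205 summits had a median signal of 411.8 and a median percentile of 48.2, 59 (28.8%) lay within 200 bp of the start, and 189 (92.2%) were in both replicate lists. Little is established about the function of most of these RNAs, so they are placed below by their protein-coding neighbours. The highest signal, 6506.0, 15.3 times the IDR median, was 518 bp upstream of lncRNA:CR44619 on the X chromosome and ranked 44 of 9342. This summit lay in an exon of another lncRNA, lncRNA:Vinr, 5032 bp from the nearest protein-coding TSS, and ranked 66 in replicate 1 and 31 in replicate 2.

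The next lncRNA site, at 14613487 on 2L, had a signal of 5525.3 and ranked 54 in replicate 1 and 60 in replicate 2. It lay in the exon of lncRNA:CR43411 inside the gene osp, 2065 bp from the TSS of Adh, the alcohol dehydrogenase gene, and its window with a run of C and a GATA word is printed above. Upstream of lncRNA:CR46036, a summit of 5225.5 lay in an intron of osa, which encodes a subunit of the Brahma chromatin remodelling complex, and ranked 69 and 56 in replicates 1 and 2. The lncRNA:CR45280 summit reached 5209.9, 52 bp upstream of the start and 5389 bp from Gadd45, a gene of the stress response, and ranked 87 and 44. All 4 were thus among the 100 highest rows of each replicate list.

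Of the 12 highest sites, 4 further lncRNA sites had signals between 2803.6 and 3337.6. At lncRNA:CR43287 the summit (3337.6) lay in an intron of CHES-1-like, a forkhead factor gene. At lncRNA:CR44339 it (3214.8) lay 4202 bp from Psc, a Polycomb group gene. At lncRNA:CR44868 it (3107.7) lay in an intron of beat-Ib, and at lncRNA:CR31044 it (2803.6) lay 117 bp upstream of the RNA that contains mir-279. These 4 ranked between 160 and 293 in replicate 1 and between 138 and 165 in replicate 2.

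Genes with 3 summits at their starts numbered 9, and 39 had 2. At lncRNA:CR46036 the 3 had signals of 5225.5, 2161.6 and 240.5. The first ranked 69 in replicate 1 and 56 in replicate 2, the second only 3536 and 7052, and the last lacked a partner in replicate 1 and ranked 6067 in replicate 2. At lncRNA:CR43334, the RNA that contains bantam, they had 1558.4, 600.8 and 287.1. At lncRNA:CR44366 they had 1347.1, 738.5 and 357.4, at lncRNA:CR44867 853.4, 484.7 and 286.5, and at lncRNA:CR43650 769.1, 363.6 and 305.2. The lncRNA:CR44867 summits of 484.7 and 286.5 lacked a partner in replicate 2 and ranked 7273 and 11306 in replicate 1. These 5 genes and asRNA:CR44375, given with its class, have the highest signals among the 9.

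The lncRNA sites that follow were picked after their values were seen, for the known roles of their neighbours, and stand for no theme of the set. At lncRNA:CR45541, summits of 1464.6 and 1047.3 lay 1798 and 1083 bp from the TSS of Hex-A, a hexokinase gene that opens glycolysis. At lncRNA:CR46015, a summit of 2260.6 lay 1177 bp from GstD1, a glutathione S-transferase gene that answers to oxidative stress. At lncRNA:CR43928, 3 summits of 416.7, 353.2 and 240.1 lay 1137 to 2287 bp from Thor, which encodes the translation repressor 4E-BP. Whether such a site acts on the lncRNA, on the protein-coding neighbour or on neither was not measured.

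Antisense RNA genes had 36 summits at 30 genes, with a median signal of 385.6 and a median percentile of 43.7. They lay upstream of the start in 28 of 36 cases (77.8%) and within 200 bp in 8 (22.2%). The antisense RNA ran opposite to the host gene in all 21 cases where the summit lay in a protein-coding gene, which is what the class name means and is no finding. Their nearest protein-coding TSS had a median distance of 1692 bp, against 3158 bp for lncRNA summits. Replicate 1 lacked a partner for 5 and replicate 2 for 2, and 30 (83.3%) had one in both.

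The highest antisense site, at 15231927 on 3R, had a signal of 5914.9, lay 424 bp upstream of asRNA:CR43471 and ranked 37 in replicate 1 and 81 in replicate 2. Upstream of asRNA:CR45789 a summit of 4095.9 lay 2636 bp from the TSS of Mdh1, a malate dehydrogenase gene of the cytosol, and ranked 96 and 121. At asRNA:CR43964 a summit of 2891.1 lay 117 bp past the start and ranked 217 and 174. The 3 summits of asRNA:CR44375, of 672.1, 496.4 and 232.3, lay within Cdk4, which encodes a cell cycle kinase. In an intron of Zw, the gene for glucose-6-phosphate dehydrogenase of the pentose phosphate pathway, a summit of 1667.1 lay 869 bp upstream of asRNA:CR44512 and 1107 bp from the TSS of Zw, a site picked after its value was seen.

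MicroRNA genes had 26 summits at 22 hairpins, with a median signal of 522.9 and a median percentile of 62.1. Only 3 (11.5%) lay within 200 bp of the nearest annotated start, of the hairpin or of a mature product. Upstream of it lay 10 (38.5%), and 25 (96.2%) were in both replicate lists. Of the 22 hairpins, 11 lay within a non-coding gene on the same strand and 10 within a protein-coding gene on the same strand, 1 of them, mir-92b, counted in both. For such hairpins the start of the host RNA, not the hairpin, is where transcription begins.

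The highest microRNA site was at mir-278, known for its part in energy balance and insulin response in the fly fat body. Its summit had a signal of 2670.9, lay in an exon of fus on the opposite strand, and ranked 662 in replicate 1 and 111 in replicate 2. At mir-277, which restrains branched-chain amino acid breakdown, the summit had a signal of 1387.5, lay 391 bp upstream in an exon of lncRNA:CR43459 and ranked 538 and 1165. The same host RNA contains mir-34, an ageing-related microRNA, with a summit of 465.2 225 bp upstream of the hairpin. At mir-10, in the Antennapedia complex of Hox genes, the summit had 1063.1, lay 434 bp upstream of the hairpin and ranked 1228 and 1210. The sequences of mir-277 and mir-34 are printed above and share no seed.

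Bantam promotes growth downstream of the Hippo pathway. Its host lncRNA:CR43334 had summits 215 and 12 bp upstream of its first start at 628435 on 3L, with signals of 1558.4 and 600.8. They ranked 360 and 1141 in replicate 1 and 1260 and 7186 in replicate 2. The hairpin had summits of 837.0 and 552.8 at 750 and 961 bp past the nearest annotated start, that of the 3′ arm product. These ranked 1106 and 1558 in replicate 1 and 3561 and 14470 in replicate 2. With lncRNA:CR43423 (1656.1) this stretch of 15000 bp held 6 of the set's summits among 10 IDR summits. An equal number of 6, among 11 IDR summits, stood in 18307 bp of 3L with snRNA:U12, asRNA:CR46033 and lncRNA:CR45241. At mir-279, which shapes carbon dioxide sensing neurons, summits of 629.2 and 264.0 lay 249 and 49 bp upstream of the hairpin, inside lncRNA:CR31044 whose own start had 2803.6. Also picked after their values were seen were mir-14, known for its effects on fat stores and cell death, with a summit of 675.0, and mir-9a, which acts against extra sensory organs, with 646.9.

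Transfer RNA genes had 22 summits at 21 genes with a median signal of 372.2 and a median percentile of 41.0. They lay close to the genes: 14 (63.6%) were within 200 bp of the tRNA start, with a median distance of 180 bp, and all 22 were in both replicate lists. A neighbouring non-coding gene also lay within 1 kb for 15 of the 22, since tRNA genes stand in clusters. The highest, at tRNA:Tyr-GTA-1-4, had a signal of 2176.3, 25 bp upstream of the gene, and ranked 353 in replicate 1 and 324 in replicate 2. The next were tRNA:Ser-TGA-2-1, with 1110.5 and ranks of 911 and 1380, and tRNA:Ala-TGC-2-1, with 1000.2 and ranks of 1270 and 1310. Copies of a tRNA gene are close to identical, so reads inside them can be shared between copies.

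Small nucleolar RNAs guide the modification of ribosomal RNA. Their 13 summits, at 12 genes, had the lowest median signal of the classes with 10 or more, 320.9 (median percentile 30.3), and 6 of the 12 genes lay within a protein-coding gene on the same strand. The highest was at snoRNA:Psi18S-996, with 1449.3, in an intron of Tudor-SN, 940 bp upstream of the snoRNA and 1487 bp from the Tudor-SN TSS. It ranked 633 in replicate 1 and 742 in replicate 2. At snoRNA:Psi18S-301 the summit had 1167.3 and ranked 888 and 1267, and at snoRNA:185 it had 775.3 and ranked 1219 and 4356.

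Spliceosomal and related small nuclear RNAs had 9 summits at 7 genes, with a median signal of 368.4, and 6 lay within 200 bp of the start. At snRNA:U12, an RNA of the minor spliceosome, summits of 1038.1 and 368.4 lay 955 and 754 bp upstream in an intron of Baldspot, a fatty acid elongase gene. The first ranked 950 in replicate 1 and 1825 in replicate 2, the second 3015 and 17440. At snRNA:U6:96Ac, of the major spliceosome, summits of 727.0 and 335.7 lay 95 bp upstream and 104 bp downstream of the start. At snRNA:U4:39B the summit had 536.2. The U6 genes at this locus are near copies of each other, so reads can be shared between them.

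Pseudogenes had 6 summits with a median signal of 327.0. The highest were at CR33294 (889.3), Cyp6a15Psi (427.9), a relic of the cytochrome P450 family, and CR43670 (388.5). The other RNA genes were RNaseMRP:RNA, which cuts the ribosomal RNA precursor, with summits of 1094.1 and 348.5, sncRNA:128 with 686.1 and the snoRNA host Uhg3 with 265.3. The RNaseMRP:RNA summits lay in its exon at 200 and 1 bp from the start, and the higher ranked 816 in replicate 1 and 1885 in replicate 2. The lower ranked 7239 and 12725, and Uhg3 ranked 11893 and 6275. The summit at sncRNA:128 ranked 2306 in replicate 1 and lacked a partner in replicate 2.

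Of a fixed list of 27 known non-coding genes, 5 had their highest summit in this set, 7 had it beside a protein-coding TSS, 13 had no IDR summit within 1 kb, and bft and Uhg6 were not matched by name. Of all 3738 non-coding genes, 20.3% had an IDR summit within 1 kb and 8.48% had a summit of this set. The difference was not tested. Hsromega, the heat shock RNA of nuclear omega speckles, had a summit of 1020.4 in its exon 111 bp past the start, with rank 824 in replicate 1 and no partner in replicate 2. A second Hsromega summit of 459.8 ranked 3060 and 1831. The flam piRNA cluster, which silences transposons in the ovary, had a summit of 410.4 at 170 bp upstream, ranked 5276 and 5242. The dosage compensation RNA roX1 had a summit of 250.3 that lacked a partner in replicate 2, while roX2 had none. Uhg3 and RNaseMRP:RNA completed the 5.

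The 7 with a protein-coding TSS within 1 kb of the highest summit were Uhg1 (308.2), Uhg2 (698.1), Uhg4 (1323.4), Uhg5 (396.7), Uhg8 (472.9), RNaseP:RNA (458.6) and snRNA:7SKa (1863.1). The 7SK RNA holds the elongation factor P-TEFb inactive, and its higher summit missed the set because the TSS of CG1142 lay 990 bp away. A lower 7SKa summit of 285.7, 13 bp from its start, was inside the set. It ranked only 15222 in replicate 1 and lacked a partner in replicate 2. No IDR summit stood within 1 kb of roX2, let-7-C, bxd, iab-8, yar, CRG, sphinx, acal, noe, Uhg7, 7SKb or either 7SL gene.

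Short sequence words were counted within 100 bp of the summit on both strands, beside windows of equal length centred 500 bp to either side. The counts are descriptions over summits that share chromosomes and peak calls. A run of 6 C (CCCCCC) was held by 38 of 321 (11.8%, 8.75 to 15.8%), against 3.74% of the flanks, 6.66% of protein-coding promoters, 13.0% of summits away from TSSs and 9.07% of all IDR summits. The GATA word (GATAAG) was held by 73 (22.7%, 18.5 to 27.6%), against 9.66% of the flanks, 23.0% of protein-coding promoters, 31.0% of summits away from TSSs and 25.8% of all IDR summits. Where present, the nearest run of C lay a median of 29.0 bp from the summit and the nearest GATA word 41.5 bp. The TATA word lay at 42.0 bp. At protein-coding promoters the run of C lay at 31.0 bp and the GATA word at 41.5 bp. At summits away from TSSs they lay at 32.5 and 35.5 bp.

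The words typical of fly housekeeping promoters were scarce. The DRE (TATCGATA) was held by 2 of 321 (0.623%, 0.171 to 2.24%), against 5.84% of protein-coding promoters and 0.426% of summits away from TSSs, with 3.76% over all IDR summits. Motif 1 (GGTCACAC), bound by the factor M1BP, was held by 1 (0.312%), against 4.55% of protein-coding promoters, 0.243% of summits away from TSSs and 2.89% of all IDR summits. The E box CAGCTG was held by 18 (5.61%, 3.58 to 8.69%), against 12.6% of protein-coding promoters, 8.18% of summits away from TSSs and 10.8% of all IDR summits. Either of the DRE and motif 1 stood at 3 of 321 (0.935%, 0.318 to 2.71%), against 9.94% of protein-coding promoters and 0.669% of summits away from TSSs. For the run of C and these 3 words the shares were closer to those of sites away from TSSs than to those of protein-coding promoters, and for the GATA word the reverse held. None of the 11 words stood at 126 of 321 (39.3%, 34.1 to 44.7%), against 33.3% of protein-coding promoters and 32.9% of summits away from TSSs.

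For the run of C, the GATA word and the remaining words, the share of all IDR summits lay within the interval of these summits. For the DRE, motif 1 and the E box CAGCTG it lay above the interval. The Myc type E box CACGTG stood at 12 (3.74%, 2.15 to 6.42%, against 3.19% of all IDR summits and 1.87% of the flanks). The GAGA word GAGAGAG stood at 19 (5.92%, against 5.06% of all IDR summits and 4.67% of the flanks). The TATA word TATAAA stood at 78 (24.3%, against 26.7% of all IDR summits and 30.4% of the flanks). The A box type word TGGCNNAGT stood at 10 (3.12%, against 2.97% of all IDR summits and 4.05% of the flanks). The B box type word GTTCGANNC stood at 6 (1.87%, against 2.07% and 1.87%). Both words belong to tRNA gene promoters inside the tRNA, but few of these hits were at tRNA summits. The A box type word stood at 0 of 22 tRNA and 6 of 205 lncRNA summits, the B box type word at 2 and 3. Each word is 1 fixed pattern, and windows reached 100 bp from tRNA summits that lay a median of 180 bp from the tRNA start. These counts therefore cannot show whether tRNA summits lie near such boxes. The GLI type word GACCACCC stood at 1 site, near tRNA:iMet-CAT-1-2 (0.312%, against 0.417% of all IDR summits and 0.156% of the flanks).

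Within the set, the words were counted by class and by distance, and no difference was tested. The run of C stood at 31 of 205 lncRNA summits (15.1%) and at 3 of 36 antisense summits (8.33%). The GATA word stood at 44 of 205 lncRNA summits (21.5%) and at 13 of 36 antisense summits (36.1%). Among the 99 summits within 200 bp of the start, 6 (6.06%) held the run of C, against 32 of the 222 farther away (14.4%). The GATA word stood at 18 of the 99 (18.2%) and at 55 of the 222 (24.8%). Summits with a GATA word had a median signal percentile of 53.0, those without it 44.2. The TATA word gave a similar 52.3 and 44.8, and the run of C gave 48.4 and 45.9.

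**Figure D4:**
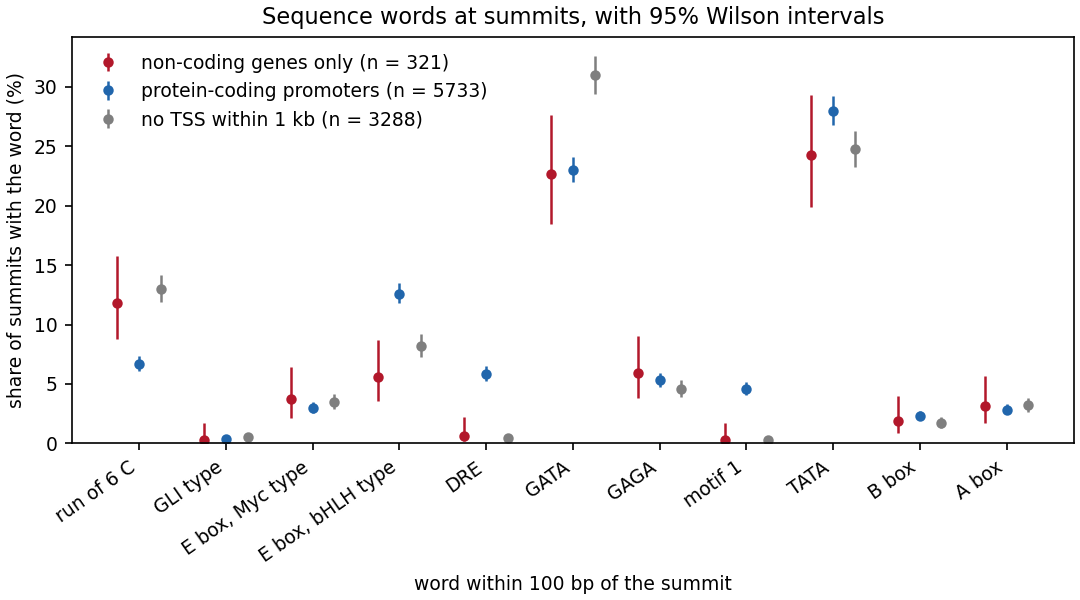
Share of summits with each word within 100 bp (vertical axis, %) for the 321 promoter summits of non-coding genes, the 5733 protein-coding promoter summits and the 3288 summits with no TSS within 1 kb. Points are shares and lines 95% Wilson intervals. The run of 6 C stands at 11.8, 6.66 and 13.0% in these sets, and the DRE at 0.623, 5.84 and 0.426%.

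Counted over genes, 759 of 3738 non-coding genes (20.3%, 19.0 to 21.6%) had an IDR summit no farther than 1 kb from a TSS, against 5485 of 13945 protein-coding genes (39.3%, 38.5 to 40.1%) and 35.3% of all annotated genes. A gene counts if any of its annotated TSSs has a summit, and the number of TSSs per gene was not matched between the kinds. Non-coding genes often start beside a protein-coding gene: 442 of the 759 had only summits that also lay within 1 kb of a protein-coding TSS, and 317 (8.48% of all non-coding genes) had a summit of the set described here. Among the 2657 non-coding genes with no protein-coding TSS within 1 kb of their own, 332 (12.5%, 11.3 to 13.8%) had an IDR summit. In that group the share was 51 of 211 for tRNA genes (24.2%, 18.9 to 30.4%), 8 of 27 for snRNA genes (29.6%, 15.9 to 48.5%) and 33 of 189 for snoRNA genes (17.5%, 12.7 to 23.5%). It was 27 of 209 for antisense RNA genes (12.9%), 24 of 196 for microRNA genes (12.2%), 177 of 1509 for lncRNA genes (11.7%, 10.2 to 13.5%), 7 of 188 for pseudogenes (3.72%, 1.82 to 7.48%) and 1 of 99 for rRNA genes (1.01%). Neighbouring genes can share a summit, which counts for each, and the difference between classes was not tested.

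**Figure D5:**
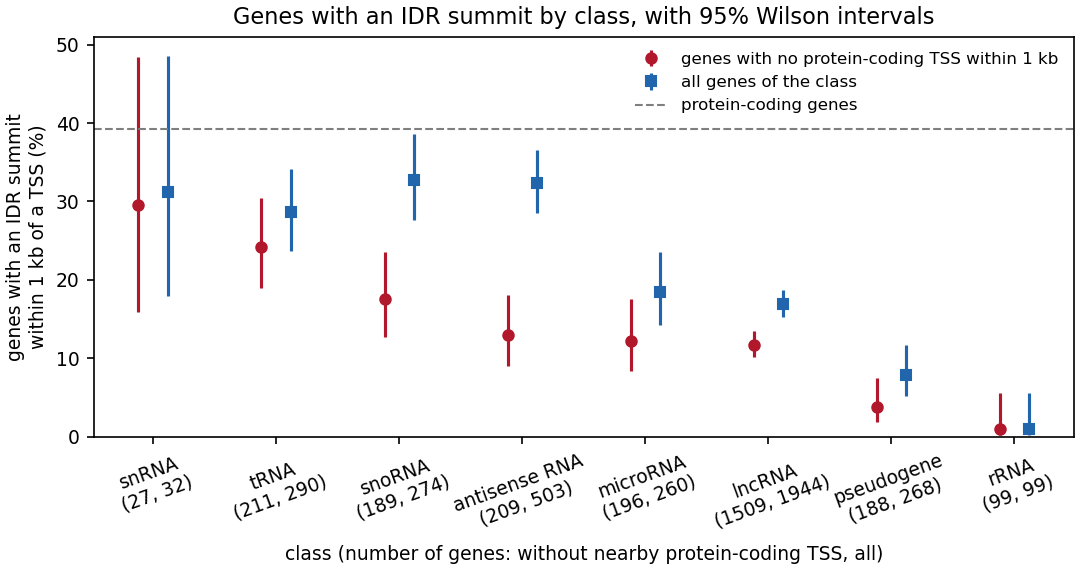
Share of genes with an IDR summit up to 1 kb from a TSS (vertical axis, %) by class, for genes with no protein-coding TSS within 1 kb (red) and for all genes of the class (blue), with 95% Wilson intervals and the number of genes of each kind under the class. The dashed line is the 39.3% of protein-coding genes. Antisense RNA genes stand at 12.9% in the red set and 32.4% in the blue set, and tRNA genes at 24.2% and 28.6%.

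The sites were spread over all chromosome arms. Of the 321, 78 were on 2L, 72 on 2R, 69 on 3L, 65 on 3R, 34 on X and 3 on chromosome 4. They were 4.63% of the IDR summits of 2L, 3.79% on 2R, 3.50% on 3L, 2.95% on 3R, 2.20% on X and 7.32% on chromosome 4. Over the whole IDR set the share was 3.44%, and chromosome 4 held only 41 IDR summits. The arms also differ in non-coding genes, with 851 on 2L, 508 on X and 34 on chromosome 4. Differences between arms were not tested.

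The summits farthest from a non-coding start inside the window were at lncRNA:CR43334 (998 bp, signal 287.1) and mir-4978 (989 bp, 1017.2), and the nearest outside it at lncRNA:CR43126 (1012 bp, 249.4) and lncRNA:CR43822 (1016 bp, 238.3). A protein-coding TSS was just far enough away at lncRNA:CR44618 (Trim9 at 1010 bp, signal 256.9) and CR31032 (CG7824 at 1056 bp, 265.4). It was just too near at lncRNA:CR42794 (CG3149 at 1000 bp, 395.7) and at the higher 7SKa summit (CG1142 at 990 bp, 1863.1).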

How the data were processed

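The deposited peak lists give for each summit a signal score, a −log10 q and an offset, per the file headers and the labels on dm6. The authors called peaks on each replicate with a control and on pooled reads, and derived the IDR set from these lists. Which aligner and peak caller they ran is not given in the sources used here. The −log10 q that the authors deposited was not used to rank. Signal scores were ranked only within a list.

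Summits were placed against Ensembl release 115 genes, without transposable elements. The class is that of the nearest non-coding TSS, and the 5′ ends of mature microRNAs count as starts. Sequence came from the RefSeq copy of dm6. Genes named are the 12 highest summits, the 3 highest of each class with 5 or more, genes with 3 summits, the fixed list of 27 genes and the edges, plus those the text says were picked after their values were seen. Members and lists were chosen with earlier results of these data known. Placement and word search were tested on simulated data. Python 3.11.15, numpy 2.4.6, pandas 2.3.3 and pysam 0.24.0 were used.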

Additional observations from a re-analysis of the deposited data

How the results depend on the processing

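The 2 replicate lists alone, cut to as many rows as the IDR set, gave 317 to 324 sites, with 27.8 to 33.6% within 200 bp. Their share in both lists was 85.5 to 87.1%. Such a site is in its own list by construction, so this share is recovery in the other list only. Without replicate 1, snRNA sites numbered 5 in place of 9 and other RNA sites 2 in place of 4. Of the 321 sites, 268 (83.5%) had a like site within 100 bp in each of these sets. A window of 500 bp put 50.6% within 200 bp and gave 12% of non-coding genes a summit, and one of 2 kb gave 22.5% and 29.5%, as windows of another length must move these shares. The IDR summits of higher signal held 150 sites with a median percentile of 54.9 within that set, and reached 11.4% of non-coding genes. Outside protein-coding genes 190 sites remained. The share in both replicate lists was 71.0% at a distance of 50 bp, 96.0% at 200 bp and 72.0% among the highest rows of each list. Of the 11 words 5 were at least 1.5 times as frequent as in the flanks, and 3 with 250 bp to each side, but GACCACCC and GGTCACAC, among the 5, stood at 1 summit each. Non-coding genes with a summit free of protein-coding TSSs were 8.48%. RefSeq genes gave 319 sites. Counting hairpin starts alone for microRNAs, an alternative chosen after seeing the data, also gave 319, with 24 at microRNA genes in place of 26. With no protein-coding TSS within 2 kb, an alternative chosen after seeing the data, 220 sites remained and 34.1% lay within 200 bp. No paired analysis was possible because there is 1 group. The depth is unknown, and transgene level, antibody background and open chromatin were not measured.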
